A study of Homo sapiens with 3 samples.

Results

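Keratins, the proteins of desmosomes and the proteins of the cornified envelope build the toughness of epithelia, and their genes were read here in U2OS, a human osteosarcoma line of bone origin. Probe sets were taken where their single annotated symbol was KRT followed by a digit, began with S100A, SPRR or LCE, or was 1 of 11 further symbols (DSP, JUP, PKP1, PKP2, PKP3, DSG2, DSC2, DSC3, IVL, SPINK6 and TFF2). That gave 116 probe sets of 86 genes, among 41091 probe sets of 19775 genes with 1 symbol. Those described were chosen by signal, 50 or more on at least 1 array, which 41 of the 86 genes reached, beside 13016 of all 19775. SPINK6 and TFF2 are neither keratin, desmosome nor epidermal complex genes and lie on chromosomes 5 and 21, so the name of the set does not cover them.

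Each of the 3 arrays held total RNA of cells transduced with a retrovirus of the pMSCV type and harvested 5 days later. The viruses carried Set8b_deltaPIP2 (titled Set8_deltaPIP2), a stable form of the histone H4 methyltransferase Set8b that resists the CRL4-Cdt2 ubiquitin ligase, or wild-type Set8b, or no insert (pMSCV-vector). U2OS, the retroviral transduction and the medium were common to all 3. Each construct had 1 array, so differences have no replicate check and none was tested. The sources used here do not give the level of the transduced proteins or whether cells were cloned, and in RNA from whole cultures more cells of a kind and more RNA per cell cannot be told apart.

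A keratin filament is a polymer of paired type I and type II keratins. Desmoplakin anchors the filaments to desmosomes, in which desmogleins and desmocollins span the membrane and plakoglobin and plakophilins form the plaque. In differentiating epidermis, involucrin and the SPRR and LCE proteins are cross-linked into the cornified envelope, and their genes lie with the S100A genes, which encode small calcium-binding proteins, in the epidermal differentiation complex of chromosome 1. Cells of bone origin are mesenchymal, and their main cytoplasmic filament protein is vimentin.

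Signals are quantile-normalized probe-set intensities, and a gene is given by its brightest probe set unless stated. Differences are on the log2 scale with any side below 50 set to 50, so a fold against such a side is a lower bound that does not cover noise. Between probe sets of the same gene the SD of the difference was 0.38 for stable Set8b over vector (6173 genes), 0.402 for stable over wild-type Set8b and 0.329 for wild-type Set8b over vector. That SD holds the noise of probes but not that of cultures, and with 1 array per construct the precision of each value is limited. Just inside the signal of 50 were S100A7A, whose highest signal was 58.7, and SPRR2B at 59.5, and just outside were KRT79 at 45.6 and S100A5 at 43.9.

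Of the 41 genes, 11 were at least 2-fold higher with stable Set8b than with vector, 26.8% beside 4.69% of all 13016 genes read the same way. None of the 41 was at least 2-fold lower, beside 3.96% of all genes. The median difference was 0.41, against 0.00 over all genes. Over wild-type Set8b, 8 of the 41 were at least 2-fold higher with stable Set8b (all genes 3.97%) and 0 lower (3.98%), with a median of 0.24. For wild-type Set8b over vector, 2 of the 41 were at least 2-fold higher (0.653% of all genes) and 0 lower (0.33%), with a median of 0.00. The genes were chosen with results of these arrays known, and the comparisons share arrays, so these counts describe the set and support nothing. With stable Set8b 38 of the 41 reached a signal of 50 (92.7%), with wild-type Set8b 27 (65.9%) and with vector 28 (68.3%). Over all genes the shares were 92.9%, 92.7% and 92.1%. The 38 was thus near the share of all genes, and the 27 and 28 were below it. On the stable Set8b array alone a signal of 50 was reached by 10 (DSP, IVL, KRT17P5, KRT20, KRT23, KRT33B, LCE1B, LCE3D, S100A7A and TFF2), 24.4% beside 3.51% of all genes. These 10 had to differ to be described at all. Of the 11 genes at least 2-fold higher over vector, 6 had a vector signal below 50.

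**Figure D1:**
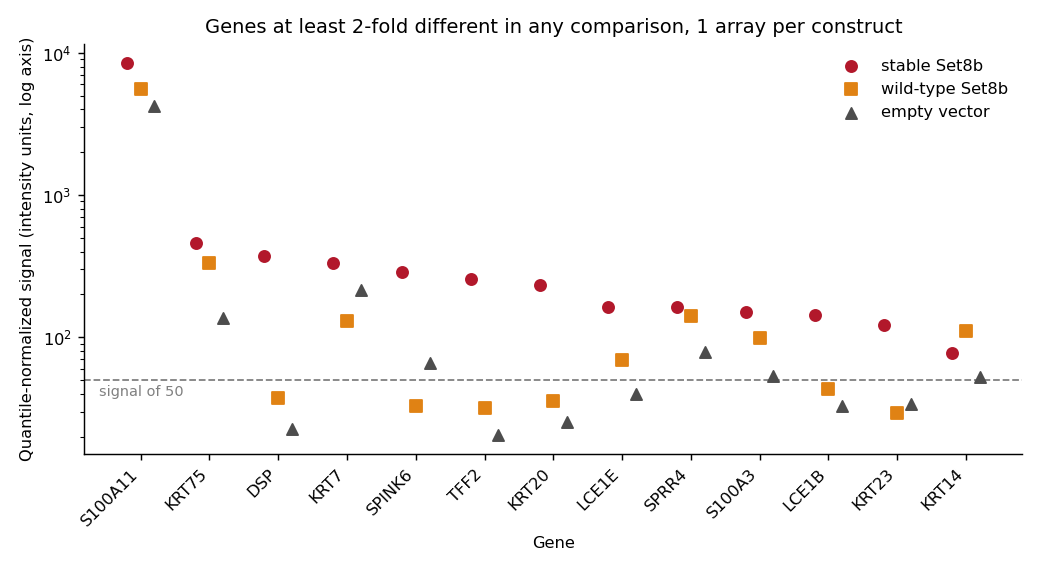
The 13 genes at least 2-fold different in any comparison, with the quantile-normalized signal on each array on a log axis, 1 array per construct and no error bars. DSP, SPINK6, TFF2 and KRT20 read 234 to 375 with stable Set8b and 65.5 or less on the other arrays. KRT75 and KRT14 were past 2-fold higher with wild-type Set8b than with vector, and S100A3, SPRR4, LCE1E and S100A11 were higher by less.

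The desmosome genes were led by DSP, which encodes desmoplakin, the link between the plaque and keratin filaments. DSP read 375 with stable Set8b, 37.5 with wild-type Set8b and 22.8 with vector. The array of stable Set8b stood alone, at least 7.50-fold above each of the others (2.91), and DSP led the 41 genes over vector, both in these bounds and with no floor (4.04). With the floor at 100 it was still at least 1.91 higher.

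The partners of desmoplakin did not show such a difference. DSG2, the desmoglein of simple epithelia, read 1800.4 with stable Set8b, 1717 with wild-type Set8b and 1887 with vector. Its companion cadherin DSC2 read 169.7 with stable Set8b, 197 with wild-type Set8b and 198 with vector. Both lay within the spread between probe sets by their brightest probe set. The dimmer probe set of DSG2 was at -0.65 for stable Set8b over vector, and that of DSC2 at 0.44, against -0.22 for its brighter one, so DSC2 has no settled direction.

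Among the plaque proteins, JUP, which encodes plakoglobin, read 241 with stable Set8b, 270.5 with wild-type Set8b and 167 with vector, higher on both Set8b arrays (0.53 and 0.70). PKP2, a plakophilin of simple epithelia and heart, read 259 with stable Set8b, 227 with wild-type Set8b and 324 with vector, highest with vector (-0.32 for stable Set8b and -0.51 for wild-type Set8b). PKP3 read 196 with stable Set8b, 221 with wild-type Set8b and 216 with vector, level within the spread between probe sets. The 2 other desmosome genes of the set, PKP1 and DSC3, did not reach 50 (highest signals 28.0 and 32.1). So of the 8 desmosome genes 6 reached 50 and 1 was past 2-fold, and the median of the 6 was -0.10 for stable Set8b over vector. In a further list of desmosome genes, PERP was at 0.30 and PKP4 at -0.16, and the other 5 measured ones (DSG1, DSG3, DSG4, DSC1 and CDSN), which belong to stratified epithelia, were below 50 on all arrays.

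Keratins of simple epithelia were read on all 3 arrays. KRT18, a type I keratin, read 6617 with stable Set8b, 5558 with wild-type Set8b and 4797 with vector, and its type II partner KRT8 read 3783 with stable Set8b, 3691 with wild-type Set8b and 3449.8 with vector. KRT10, best known from the suprabasal epidermis, read 3796 with stable Set8b, 3213 with wild-type Set8b and 3269 with vector. For stable Set8b over vector KRT18 was at 0.46, above the SD between probe sets but at 0.29 with arrays centred on their medians, and KRT8 and KRT10 were at 0.13 and 0.22, within it. All of these probe sets end in _x_at and can also read related transcripts, such as keratin pseudogenes. KRT10 had another 2 probe sets, at 0.29 and -0.26, and KRT8 was at -0.02 with arrays centred on their medians. KRT80, a type II keratin, read 2771 with stable Set8b, 3354 with wild-type Set8b and 2900.0 with vector, which left the stable Set8b and vector arrays level (-0.07).

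KRT20, KRT23 and KRT7 were past 2-fold for stable over wild-type Set8b. KRT20, a type I keratin of intestinal epithelium and urothelium, read 234 with stable Set8b, 35.8 with wild-type Set8b and 25.4 with vector. It was at least 4.67-fold higher with stable Set8b than on either other array. KRT23, another type I keratin, read 121 with stable Set8b, 29.2 with wild-type Set8b and 34.1 with vector, at least 2.42-fold higher than both. KRT7, a type II keratin of glandular and simple epithelia, read 330.3 with stable Set8b, 129.7 with wild-type Set8b and 215 with vector. Its wild-type Set8b array was the lowest, so KRT7 was 2.55-fold higher for stable over wild-type Set8b but 1.53-fold higher over vector. The probe sets of KRT23 and KRT7 end in _s_at, and neither gene has a value with such probe sets left out. The further probe sets of KRT7 did not exceed 46.9. Of the 7 simple epithelial keratins, 6 reached 50, with a median of 0.54 for stable Set8b over vector. The exception was KRT19, whose highest signal was 4.9.

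KRT75 and KRT14 were the 2 genes past 2-fold with wild-type Set8b. KRT75, a type II keratin of the hair follicle's companion layer, read 462 with stable Set8b, 333 with wild-type Set8b and 137 with vector. Both Set8b arrays were above vector, by 3.37-fold for stable and 2.44-fold for wild-type Set8b, and stable over wild-type Set8b was 1.39-fold. KRT14, the type I keratin of basal keratinocytes, read 77.6 with stable Set8b, 111 with wild-type Set8b and 52.6 with vector, highest with wild-type Set8b (2.11-fold over vector). KRT14 lay near 50 and was at 0.15 with the floor at 100. Its type II partner KRT5 did not exceed 29.4.

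The remaining keratin symbols were near or under the limit. KRT222 read 61.7 with stable Set8b, 86.4 with wild-type Set8b and 103 with vector, the lowest difference of the set at -0.73. KRT9, a keratin of palm and sole, read 53.5 with stable Set8b, 38.5 with wild-type Set8b and 73.6 with vector. KRT33B, a hair keratin, read 59.7 with stable Set8b, 29.1 with wild-type Set8b and 7.6 with vector, and with the dim sides at 50 its bound over vector was 0.26. The antisense gene KRT10-AS1 was at 0.38 and the pseudogenes KRT8P12 and KRT17P5 at 0.41 and at 0.40 or more. Of 48 keratin symbols 15 reached 50 and 33 did not, beside 13016 of all 19775 genes that did. Below 50 were 13 of 16 keratins of basal and stratified epithelia and 17 of 19 of hair and root sheath. KRT16, a keratin of wounded epidermis, did not exceed 42.9. It was the only 1 of 5 listed stress and wound keratins with a single-symbol probe set, so the others were not read. Of 26 listed hair and root sheath keratins, 19 had such a probe set. Of the 15 that reached 50, 3 were at least 2-fold higher with stable Set8b over vector (KRT20, KRT23 and KRT75), 3 over wild-type Set8b (KRT20, KRT23 and KRT7) and 0 lower in either.

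**Figure D2:**
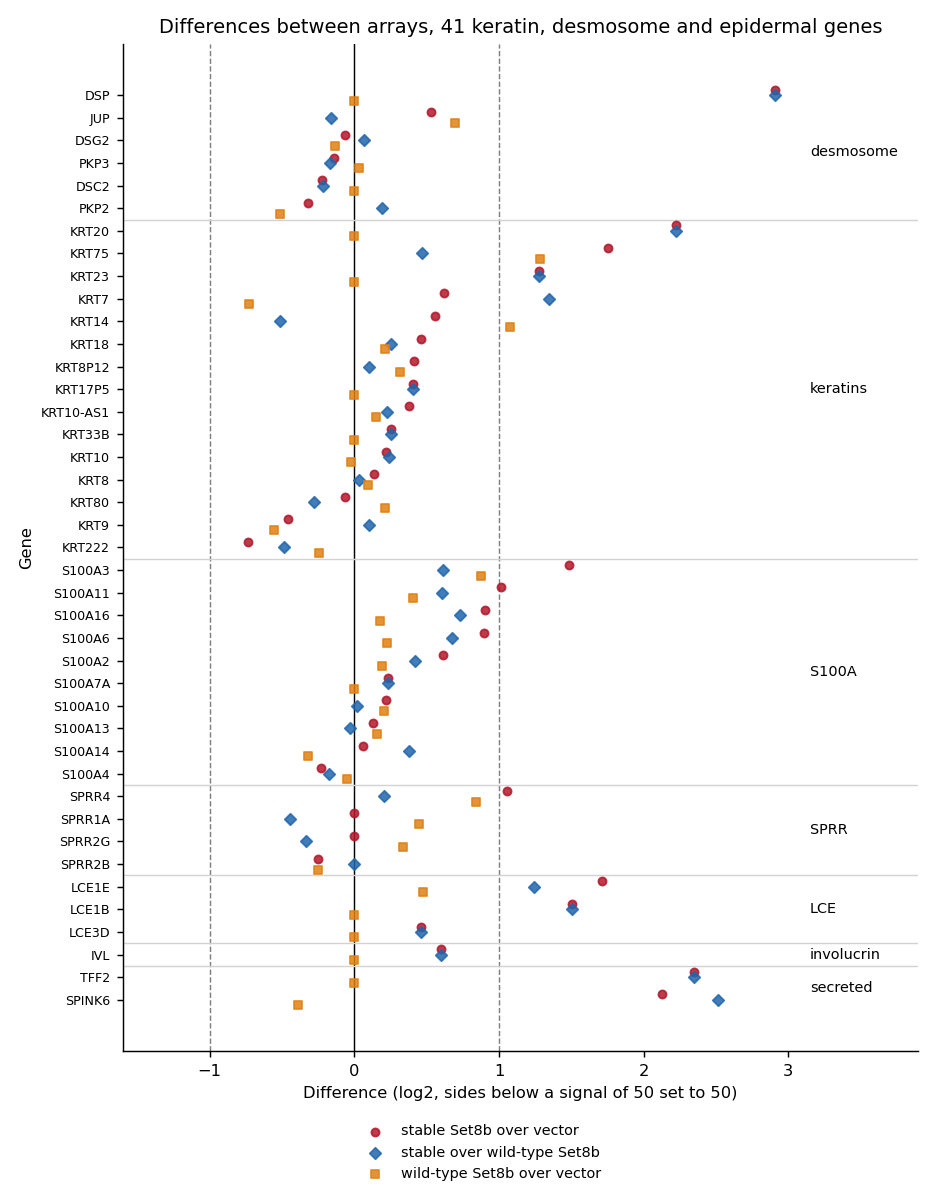
Log2 differences between arrays for the 41 genes at a signal of 50 or more, by family, with sides below 50 set to 50 and dashed lines at 2-fold. Points of stable Set8b over vector reach past 1 for 11 genes and none lies below -1 in any comparison, and the desmosome genes other than DSP stay between -0.51 and 0.70.

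Both secreted proteins were past 4-fold with stable Set8b, over vector and over wild-type Set8b. TFF2, a trefoil peptide of gastric mucus, read 255 with stable Set8b, 31.9 with wild-type Set8b and 20.5 with vector. It was at least 5.10-fold higher with stable Set8b than on either other array. SPINK6, a skin inhibitor of kallikrein proteases, read 286 with stable Set8b, 32.9 with wild-type Set8b and 65.5 with vector. Here stable Set8b was 4.36-fold above vector and at least 5.72-fold above wild-type Set8b, whose array was the lowest. Of the kallikreins, KLK6 read 1971 with stable Set8b, 1368 with wild-type Set8b and 1017 with vector (0.96), and KLK5 read 104 with stable Set8b, 33.6 with wild-type Set8b and 55.7 with vector (0.91). Neither reached 2-fold over vector. The other 10 measured genes of that list, which holds trefoil, SPINK and kallikrein genes, were below 50, TFF1 and TFF3 among them.

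The promoters of DSP, KRT20 and SPINK6 are shown because these genes were past 4-fold over vector. The fourth such gene, TFF2, was not matched in the promoter table. They are RefSeq sequences of GRCh38.p14, from 250 bases before the gene's start to 50 after it, 5′ to 3′ on the gene's strand. Capitals mark matches, on either strand, to TGANTCA (bound by AP-1), CAGGTG (an E-box bound by SNAI and ZEB proteins) or TATAAA (the TATA box). DSP lies at chr6:7541421-7541720 on the + strand, KRT20 at chr17:40885193-40885492 on the - strand and SPINK6 at chr5:148202528-148202827 on the + strand.
DSP: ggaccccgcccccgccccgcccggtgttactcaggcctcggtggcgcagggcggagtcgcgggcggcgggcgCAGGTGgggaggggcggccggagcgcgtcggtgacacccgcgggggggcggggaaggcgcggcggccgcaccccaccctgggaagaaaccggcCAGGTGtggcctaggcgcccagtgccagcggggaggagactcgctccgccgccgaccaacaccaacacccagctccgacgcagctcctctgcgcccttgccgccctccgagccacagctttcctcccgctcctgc
KRT20: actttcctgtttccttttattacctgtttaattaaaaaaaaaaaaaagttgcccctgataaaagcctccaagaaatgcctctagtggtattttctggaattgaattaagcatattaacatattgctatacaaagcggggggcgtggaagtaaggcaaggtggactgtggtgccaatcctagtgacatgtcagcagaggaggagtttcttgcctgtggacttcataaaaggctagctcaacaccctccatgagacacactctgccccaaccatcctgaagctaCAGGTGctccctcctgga
SPINK6: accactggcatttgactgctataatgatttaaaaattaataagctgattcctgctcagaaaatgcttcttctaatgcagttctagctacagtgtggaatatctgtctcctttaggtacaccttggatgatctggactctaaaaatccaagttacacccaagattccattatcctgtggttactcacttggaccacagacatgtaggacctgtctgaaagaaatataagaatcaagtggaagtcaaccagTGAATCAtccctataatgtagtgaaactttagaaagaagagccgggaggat
CAGGTG stood at 2 places in the DSP window, its first base 178 and 85 bases before the start, and at 1 place in the KRT20 window, beginning at base 33 after the start. TGANTCA occurred in the SPINK6 window as TGAATCA, from 1 base before the start. TATAAA was in none of these windows. A table of 35116 promoters of the same length held CAGGTG in 20.6%, TATAAA in 11.5% and TGANTCA in 7.71%. Of the 41 genes, 29 were matched in that table by gene identifier, of which 14 held CAGGTG, 10 TATAAA and 6 TGANTCA. A match is a description of the letters and not a binding site.

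Of the S100A genes, S100A11, S100A16, S100A6 and S100A3 were higher with stable Set8b than with vector by more than the SD between probe sets under all 3 scalings. S100A11, a component of the cornified envelope in keratinocytes, read 8526 with stable Set8b, 5592 with wild-type Set8b and 4227 with vector. The order of the arrays was stable, wild-type, vector, and the difference from vector was 2.02-fold (1.01), or 0.91 with values as deposited and 0.80 with arrays centred on their medians, both short of 2-fold. S100A16 read 8633 with stable Set8b, 5203 with wild-type Set8b and 4609 with vector (0.91), and S100A6, calcyclin, read 4199 with stable Set8b, 2635 with wild-type Set8b and 2251 with vector (0.90). In both the stable Set8b array was the highest and the other arrays lay close together, 0.17 and 0.23 apart.

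S100A2, expressed in basal epidermis, read 23627 with stable Set8b, 17694 with wild-type Set8b and 15466 with vector. Its difference of stable Set8b from vector depended on the scaling, 0.61 after quantile normalization, 0.34 as deposited and 0.23 with centred arrays. S100A10, the partner of annexin A2, read 15926 with stable Set8b, 15739.9 with wild-type Set8b and 13664 with vector. Its difference over vector was 0.22, and -0.08 with centred arrays, and its difference over wild-type Set8b was 0.02, against -0.32 as deposited, so S100A10 has no settled direction. S100A13 read 3058 with stable Set8b, 3127 with wild-type Set8b and 2802 with vector, level within the spread between probe sets.

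S100A3, a protein of the hair cuticle, had the largest difference over vector of the S100A genes. It read 149.9 with stable Set8b, 98.0 with wild-type Set8b and 53.5 with vector, in steps of 1.53-fold for stable over wild-type Set8b and 1.83-fold for wild-type Set8b over vector, 2.80-fold in all. With the floor at 100 the difference over vector was at 0.58. S100A4, known from metastasis and fibroblasts, read 1060.4 with stable Set8b, 1196 with wild-type Set8b and 1242 with vector, lowest with stable Set8b at -0.23. S100A14 and S100A7A lay close to 50, at 0.06 and at 0.23 or more. The epithelial and inflammatory members S100A7, S100A8, S100A9 and S100A12 did not exceed 26.0, and S100A1 and S100A5 stayed below 50 as well. Of the 16 S100A genes, 10 reached 50 and 2 were past 2-fold over vector, with a median of 0.42, and 0 were past it over wild-type Set8b, with a median of 0.40.

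The LCE, SPRR and involucrin genes read 164 or less on every array. LCE1E, a late envelope protein gene, read 164 with stable Set8b, 69.3 with wild-type Set8b and 39.6 with vector. It was at least 3.28-fold above vector and 2.37-fold above wild-type Set8b by an _x_at probe set, but its other probe set read 69.8 with stable Set8b, 62.9 with wild-type Set8b and 51.9 with vector (0.43). LCE1B read 142 with stable Set8b, 43.5 with wild-type Set8b and 32.9 with vector, at least 2.84-fold higher with stable Set8b than with either. LCE3D read 68.7 with stable Set8b, 19.0 with wild-type Set8b and 41.8 with vector, and IVL, the involucrin scaffold of the envelope, read 75.8 with stable Set8b, 21.6 with wild-type Set8b and 12.9 with vector. For both the stable Set8b array alone reached 50, and the bounds over vector were 0.46 and 0.60. LCE2B did not exceed 22.3.

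Of the small proline-rich proteins, SPRR4 read 162 with stable Set8b, 140.2 with wild-type Set8b and 78.1 with vector. Both Set8b arrays were above vector, by 2.07-fold and 1.80-fold. SPRR1A read 6.8 with stable Set8b, 68.1 with wild-type Set8b and 6.8 with vector, so the wild-type Set8b array alone was near the limit. SPRR2G read 37.9 with stable Set8b, 63.1 with wild-type Set8b and 34.7 with vector, and SPRR2B read 35.5 with stable Set8b, 26.6 with wild-type Set8b and 59.5 with vector. Each of these genes reached 50 on a single array, and not on that of stable Set8b. SPRR3, SPRR1B and SPRR2C were below 50 throughout.

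All S100A, SPRR, LCE and involucrin genes lie in the epidermal differentiation complex, whose order was taken from RefSeq GRCh38.p14. Between S100A10 and S100A1, 28 of these genes and 17 others had a probe set, and 18 and 3 of them reached 50. The 5 genes of the set past 2-fold with stable Set8b over vector (S100A11, LCE1E, LCE1B, SPRR4 and S100A3) were spread along the complex. LCE1E and LCE1B were neighbours among the measured genes, while S100A4 at -0.23 lay between S100A6 at 0.90 and S100A3 at 1.49. Of the other genes, CCDST, a noncoding RNA gene on the S100A11 side of the LCE genes, read 1475 with stable Set8b, 93.7 with wild-type Set8b and 96.2 with vector (3.94). The envelope gene LORICRIN read 162 with stable Set8b, 205 with wild-type Set8b and 90.0 with vector, past 2-fold with wild-type Set8b (1.19) and at 0.85 with stable Set8b. KPLCE, the third of the other genes to reach 50, read 62.5 with stable Set8b, 14.3 with wild-type Set8b and 42.7 with vector, at 0.32 or more over vector. Filaggrin (FLG) and the 13 further measured genes of the interval did not reach 50.

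**Figure D3:**
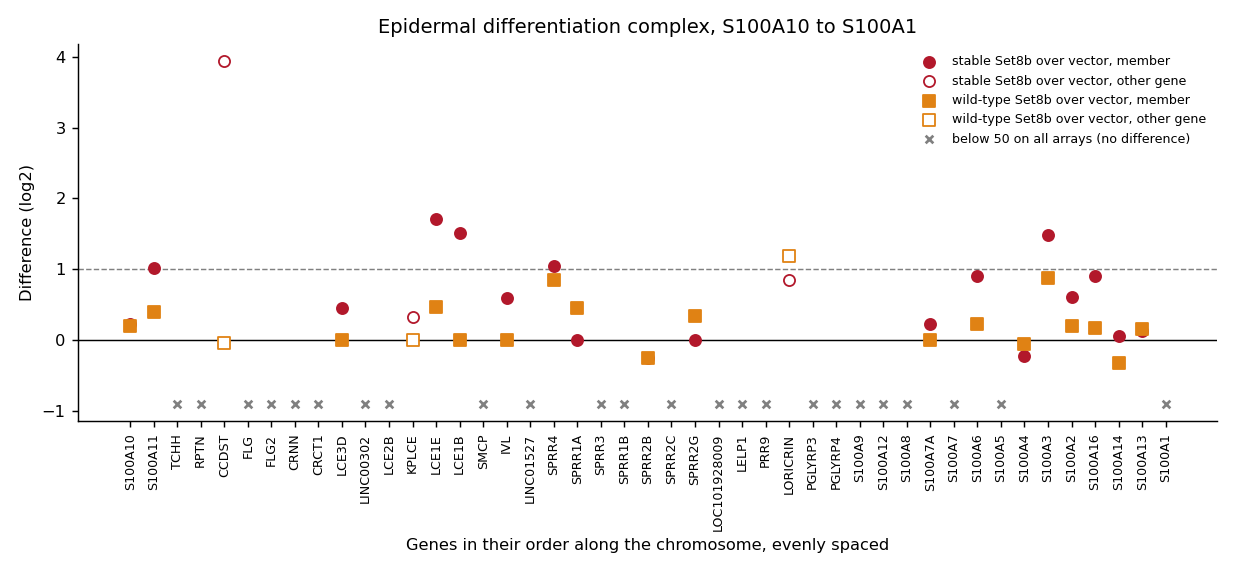
Genes from S100A10 to S100A1 in chromosomal order, evenly spaced, with the log2 difference over vector of stable Set8b (circles) and wild-type Set8b (squares), filled for S100A, SPRR, LCE and involucrin genes and open for others, and crosses for genes below 50 on all arrays. Points of stable Set8b past 1 are spread along the complex, and those of S100A10, S100A13, S100A14 and the SPRR1 and SPRR2 genes lie between -0.25 and 0.22.

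Genes of related structures differed in both directions. Of 6 hemidesmosome genes, LAMB3, a chain of the epidermal laminin, read 3794 with stable Set8b, 2208 with wild-type Set8b and 1462 with vector (1.38), and PLEC and DST were at 0.77 and 0.67. ITGB4, the hemidesmosome integrin, read 27.7 with stable Set8b, 92.5 with wild-type Set8b and 116 with vector, -1.22 or lower, so 1 was past 2-fold in each direction and the median was 0.60. Among 14 measured genes of adherens and tight junctions, 11 reached 50, with 1 higher, 2 lower and a median of -0.15. CLDN1, a claudin, was at 1.83, EPCAM at -1.35, the junction plaque gene CGN at -1.20 and TJP3 at -0.76 or lower. The cornified envelope list outside the set had 21 measured genes, of which 4 reached 50 and 1 was past 2-fold, with a median of 0.45. That gene was CSTA, an inhibitor of cysteine proteases, which read 1214 with stable Set8b, 478 with wild-type Set8b and 446 with vector (1.45).

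Among 15 measured epithelial transcription and splicing factors 7 reached 50, of which 1 was at least 2-fold lower and 0 higher, and the median was 0.00. RBM47, an RNA-binding protein, was at -1.86 or lower, OVOL2, a repressor of mesenchymal genes, at -0.84, KLF5 at 0.64 and SOX9 at 0.49. SNAI2, a repressor of epithelial genes that binds E-boxes, read 951 with stable Set8b, 194 with wild-type Set8b and 169.9 with vector (2.48). ZEB1 was at 0.61, SNAI1 at -0.20 or lower and TWIST2 at 0.02, and the median of these 4 repressors was 0.31. Of 10 other intermediate filament genes at 50 or more, 0 were past 2-fold over vector, with a median of 0.09. The genes there with the largest sizes, dim sides at 50, were BFSP1 at 0.86 or more, LMNB2 at -0.83, LMNB1 at -0.53 and SYNM at -0.28 or lower. Of 5 partners of S100 proteins, TLR4, a receptor for S100A8 and S100A9, was at 1.65. Its probe set ends in _x_at, and its vector signal of 55.4 lay near 50. ANXA1 was at 0.33, AGER at -0.26 or lower and AHNAK at 0.15, and the median of the 5 was 0.15.

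**Figure D4:**
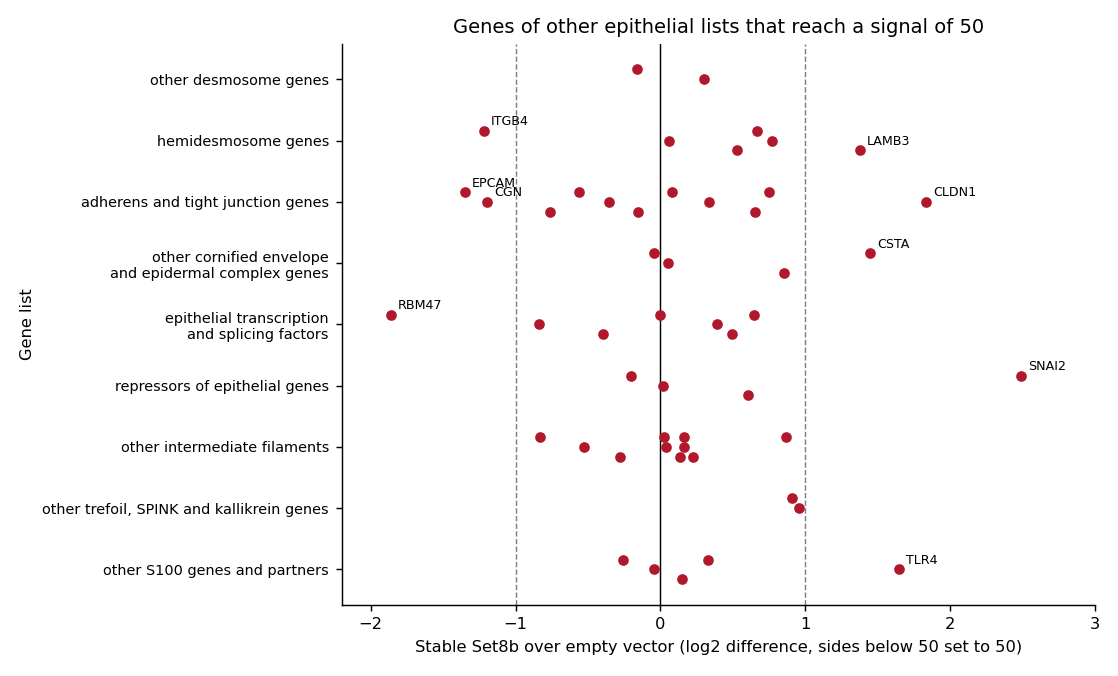
Log2 differences of stable Set8b over vector for the genes of related lists that reach a signal of 50, 1 point a gene and names past 2-fold. SNAI2, CLDN1, TLR4, CSTA and LAMB3 lie above 1, and RBM47, EPCAM, ITGB4 and CGN lie below -1.

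Markers of both kinds reached 50, 8 of 11 measured mesenchymal ones and 4 of 8 epithelial ones, beside 13016 of all 19775 genes. VIM, vimentin, read 13006 with stable Set8b, 11123 with wild-type Set8b and 12787 with vector, and COL1A1 read 12894 with stable Set8b, 8855 with wild-type Set8b and 10739.9 with vector. Of 11 measured osteoblast and mesenchymal markers 8 reached 50, and SP7, IBSP and COL1A2 did not. For stable Set8b over vector 7 of the 8 were above 0 and 1 was past 2-fold, with a median of 0.49 beside 0.41 for the 41 genes. The cadherin gene CDH11 was at 1.29, ALPL, alkaline phosphatase, at 0.88 or more, CDH2, N-cadherin, at 0.75, SPP1, osteopontin, at 0.72 and the osteoblast factor RUNX2 at -0.62. The summed signal of the 11 was 37323 with stable Set8b, 28755 with wild-type Set8b and 32840 with vector. Of 8 measured epithelial markers KRT5, ESRP1, GRHL2 and CLDN7 stayed below 50, and the summed signal of the 8 was 459 with stable Set8b, 768 with wild-type Set8b and 664 with vector. EPCAM, which held much of that sum, read 169 with stable Set8b, 425 with wild-type Set8b and 431 with vector. It was at -1.35 over vector, the only one of the 8 past 2-fold, and OVOL2 at -0.84. CDH1, E-cadherin, read 78.6 with stable Set8b, 17.8 with wild-type Set8b and 38.1 with vector, at 0.65 or more, and KRT14 was at 0.56. Of 5 measured leukocyte markers CD3D and CD79A reached 50 and PTPRC, CD14 and LYZ did not, with summed signals of 360.0 with stable Set8b, 316 with wild-type Set8b and 250 with vector. The part of other cell types in the differences was not tested.

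The transduced gene KMT5A had 4 probe sets, at -0.76 to 0.90 for stable Set8b and at 0.18 to 1.23 for wild-type Set8b over vector, which do not check the labels. Across 18 probe sets of hybridisation spike-ins, the stable Set8b array read a median of 0.796 times the vector array and 0.784 times that of wild-type Set8b, lowest on the array where the set was highest. For 24 probe sets of poly-A spike-ins the ratio to the vector array was 0.467 with stable and 0.441 with wild-type Set8b. The ratio of 3′ to 5′ signal of ACTB was 7.326 with stable Set8b, 7.563 with wild-type Set8b and 7.995 with vector. For GAPDH it was 1.022 with stable Set8b, 1.121 with wild-type Set8b and 1.031 with vector. The part of the spike-ins or of these ratios in the differences was not tested.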

How the data were processed

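Per the labels' protocols, Trizol-extracted total RNA was biotin-labelled for Affymetrix arrays. For each array the authors deposited 54675 probe-set intensity values on a linear scale. The program behind them is not given in the sources here, and the values show a trimmed mean of 250.0 on every array (2% trimmed at each end).

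Python 3.11.15, numpy 2.4.6, pandas 2.3.3 and matplotlib 3.10.9 were used. The log2 medians of the arrays spanned 0.149, above the limit of 0.1 set for leaving the values as deposited. The 54613 non-control probe sets were therefore quantile normalized, which gives the arrays a common distribution. This changed differences in both directions. Stable Set8b over vector went from 0.34 to 0.61 for S100A2 and from 1.57 to 1.49 for S100A3. Of the non-control probe sets 41091 had 1 symbol, 1801 several and 11721 none. Genes with a probe set at 50 or more on at least 1 array were compared, each by the probe set with the highest mean log2, with both sides set to at least 50. The same 41 genes pass by deposited values. No detection calls were used.

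The genes of the set and all lists were chosen with earlier results of these data known. Genes past 2-fold in any comparison, desmosome genes and the brightest of each family are given on every array, and up to 4 of each other list by size of difference, with other genes picked after their values were seen. The steps were tested on simulated data. Alternatives were the scaling, the floor, the choice of probe sets, the filter and the fold threshold.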

Additional observations from a re-analysis of the deposited data

Results flagged for a closer look

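A probe set outside the comparisons carried a signal. It is annotated with both KRT34, a type I hair keratin, and LOC100653049, so it was left out of the set. It read 505 with stable Set8b, 53.2 with wild-type Set8b and 48.0 with vector. The difference of stable Set8b from vector was 3.34 or more on the log2 scale, and which of both symbols it reads was not tested. Of 2 probe sets annotated with several symbols that include a keratin symbol, it was the only one to reach a signal of 50.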

How the results depend on the processing

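No paired analysis was possible because each construct had 1 array. None of the 903 recomputed differences of the 41 genes reversed a 2-fold difference, 803 moved by less than the SD between probe sets and 100 by more. With the floor at 100, which leaves 31 genes, the count at least 2-fold higher was 6 in place of 11 for stable Set8b over vector, 5 in place of 8 against wild-type Set8b, and 1 in place of 2 for wild-type Set8b over vector. Without _x_at and _s_at probe sets 5 of 27 genes were higher for stable over wild-type Set8b, and 9 for stable Set8b over vector. The latter count was also 9 with centred arrays, 10 with values as deposited and 13 with no floor. With no floor, and with a floor at 7.7, wild-type Set8b over vector had 4 higher and 3 lower in place of 0, and stable over wild-type Set8b had 1 lower in place of 0. At 1.5-fold there were 16 higher and 1 lower for stable Set8b over vector. There were 13 higher for stable over wild-type Set8b, and 5 higher and 1 lower for wild-type Set8b over vector. At 3-fold the counts were 6 for stable Set8b over vector, 4 over wild-type Set8b and 0 for wild-type Set8b over vector. DSP, KRT20, SPINK6, TFF2 and KRT75 passed 2-fold over vector in all 8 settings other than the threshold. Each of these genes has a single probe set, which ends in neither _x_at nor _s_at. The settings that average or leave out probe sets could therefore not change their values, and the filter left them unchanged. For these genes only the scaling and the floor varied the values.

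Over all genes, stable Set8b over vector had 611 higher and 515 lower, against 937 and 799 with no floor. Stable over wild-type Set8b had 517 and 518, against 838 and 847 with no floor. Wild-type Set8b over vector had 85 and 43, against 403 and 283 with no floor, 397 and 281 with the floor at 7.7, and 29 and 12 with the floor at 100. Its count of lower genes was also 92 with centred arrays and 27 with the mean over probe sets. At 1.5-fold the 3 comparisons, in that order, had 1661 and 1618, 1577 and 1684, and 644 and 461, and at 3-fold 176 and 92, 140 and 90, and 3 and 3. Centring shifted the median of all genes by -0.138 for wild-type Set8b over vector. The cause of these changes beyond the settings' own construction was not tested. Signals near 50 may be background, and 1 array per construct limits every value.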
